A study of Homo sapiens with 8 samples.

Results

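Chromosome 5 was compared arm by arm, and along its length in 10 Mb bins, between HSC-3 and KOSC-2, which are long-used lines derived from squamous carcinomas of the mouth. Its accessible regions were all peaks on chromosome 5 in the 8 deposited peak lists, merged wherever peaks shared at least 1 bp. This gave 4792 regions of 80588 in the genome (5.95%), with 1316 on the short arm (5p, peaks starting below 46.4 Mb of build hg19) and 3476 on the long arm (5q, peaks starting at or above 49.4 Mb). The last 5p region was chr5:45800055-45800394, called in 1 HSC-3 and 0 KOSC-2 libraries. The first 5q region was chr5:49596767-49597154, called in 0 HSC-3 and 2 KOSC-2 libraries. No region lay between the limits. The chromosome was chosen because HSC-3 held the larger part of its list there. Every comparison of the lines below is therefore a description without a test, and only irradiation, which was not used in the choice, is tested.

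The assay was ATAC-seq: a transposase inserts adapters where DNA is open. The groups were HSC-3 at 8 Gy, HSC-3 at 0 Gy, KOSC-2 at 8 Gy and KOSC-2 at 0 Gy, each with 2 libraries, all frozen 24 hours after the dose. HSC-3 is labelled radioresistant and KOSC-2 radiosensitive, and each class rests on 1 line. Whether the pair of libraries in each group stems from different cultures is not labelled, and p-values then reflect only how much these libraries scatter. The lists carry no gene names and no hg19 annotation was used here. Regions therefore go by position, and the cell type was not checked by its markers.

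As background, 5p carries TERT, which encodes the catalytic subunit of telomerase, and 5q carries the tumour suppressor gene APC and the clustered protocadherin genes. Squamous carcinomas often gain 5p and lose parts of 5q. The number of ATAC-seq reads at a place depends on how open the chromatin is and on how many DNA copies the cell holds, and a peak list does not separate them.

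The lists held 22504 to 43089 peaks in HSC-3 and 38234 to 51693 in KOSC-2 on chromosomes 1 to 22 and X. Depth, read from the lowest background in each list, was 20.2 to 42.6 reads per 10 kb in HSC-3 and 24.3 to 64.8 in KOSC-2. The HSC-3 8 Gy library replicate 1, the HSC-3 0 Gy library replicate 2 and the KOSC-2 0 Gy library replicate 1 had the lowest enrichment, with median pileups of 21.9, 34.7 and 25.7 times the background at regions called in every library, against 49.6 to 67.3 in the other 5. The KOSC-2 0 Gy library replicate 1 also stood apart from the other 3 KOSC-2 libraries on chromosome 5 itself, so the main values are given with and without it.

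On both arms the fraction of the list was larger in HSC-3 than in KOSC-2. Of the 23 chromosomes, 6 (26.1%) had all HSC-3 shares above all KOSC-2 shares, chromosome 5 among them. On 5p the shares were 2.09% and 1.69% in the 8 Gy and 1.73% and 1.77% in the 0 Gy libraries of HSC-3, against 1.28% and 1.21% in the 8 Gy and 1.67% and 1.25% in the 0 Gy libraries of KOSC-2. They averaged 1.82% ± 0.183 in HSC-3 and 1.35% ± 0.217 in KOSC-2 (SD, n = 4 each), a ratio of 1.35. The values of the lines did not overlap, but the lowest HSC-3 value (1.69%, 95% Wilson interval 1.57 to 1.81%) and the highest KOSC-2 value (1.67%, 1.55 to 1.81%) differed by less than counting error. That KOSC-2 value came from the 0 Gy library replicate 1. Without this library KOSC-2 averaged 1.24% ± 0.0348 (SD, n = 3) and the ratio was 1.46. These intervals cover counting error only.

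The gap was wider in percentage points on 5q. The shares were 5.04% and 4.90% in the 8 Gy and 4.88% and 5.26% in the 0 Gy libraries of HSC-3, against 3.99% and 3.99% in the 8 Gy and 4.29% and 3.99% in the 0 Gy libraries of KOSC-2. The averages were 5.02% ± 0.175 in HSC-3 and 4.07% ± 0.149 in KOSC-2 (SD, n = 4 each), a ratio of 1.23, without overlap. The highest KOSC-2 value was again that of the 0 Gy library replicate 1, and without it KOSC-2 averaged 3.99% ± 0.00271 (SD, n = 3). Of the 1.42 percentage points by which HSC-3 exceeded KOSC-2 on the whole chromosome, 0.467 (32.8%) lay on 5p and 0.955 (67.2%) on 5q.

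**Figure D1:**
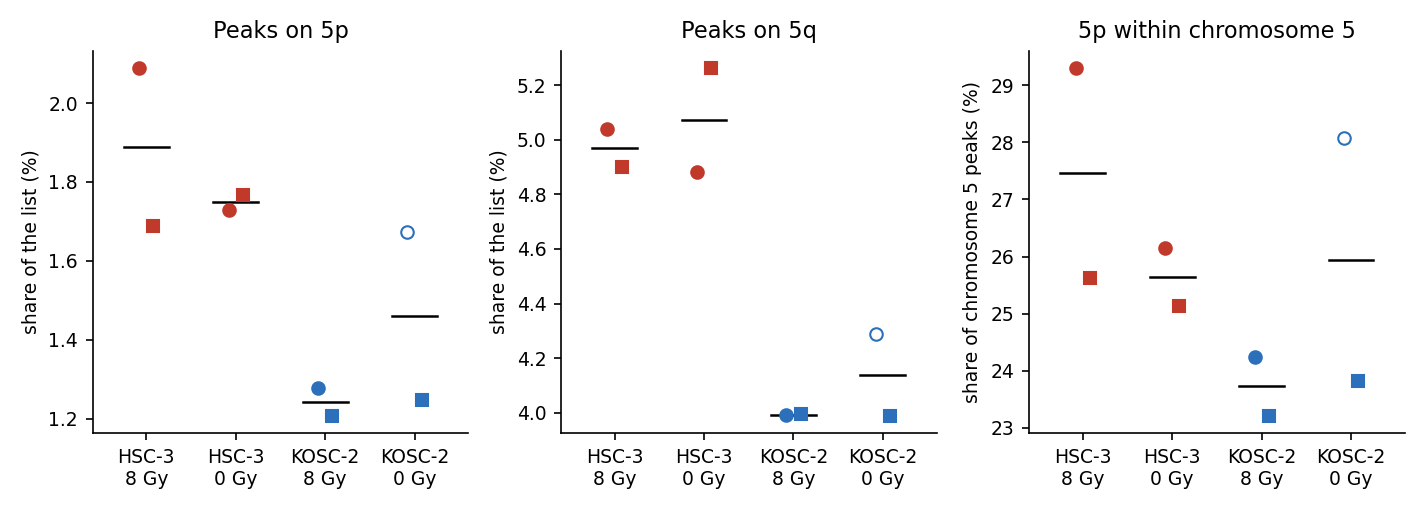
Share of each peak list on 5p and on 5q (% of peaks on chromosomes 1 to 22 and X), and share of the chromosome 5 peaks that lie on 5p (%), for each library by line and dose. Circles are replicate 1, squares replicate 2, bars group means, and the open circle is the KOSC-2 0 Gy library replicate 1. HSC-3 (red) lies above KOSC-2 (blue) on both arms, while in the third panel the open circle, at 28.1%, lies within the HSC-3 range of 25.1 to 29.3%.

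The balance between the arms overlapped between the lines. The 5p share of the chromosome 5 peaks was 29.3% and 25.6% at 8 Gy and 26.2% and 25.1% at 0 Gy in HSC-3, against 24.2% and 23.2% at 8 Gy and 28.1% and 23.8% at 0 Gy in KOSC-2. It averaged 26.6% ± 1.88 in HSC-3 and 24.8% ± 2.2 in KOSC-2 (SD, n = 4 each). Single libraries decided the size of this difference of 1.72 percentage points, which was 0.803 when replicate 1 of HSC-3 at 8 Gy was left out and 2.80 when replicate 1 of KOSC-2 at 0 Gy was. Both had low enrichment and the highest 5p shares of their lines. The third library of low enrichment, the HSC-3 0 Gy library replicate 2, had the lowest 5p share of chromosome 5 in HSC-3. The part of enrichment in these values was not tested. Without all 3, which left fewer libraries in each line, the 5p share of chromosome 5 was 2.13 percentage points higher in HSC-3 than in KOSC-2. The 5p share of the list was then 0.465 percentage points higher in HSC-3, and that of 5q 0.899.

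Along the chromosome, the larger HSC-3 share came mainly from the tip of 5p and from 5q beyond 80 Mb. In 11 of the 19 bins of 10 Mb (57.9%) all 4 HSC-3 shares lay above all 4 KOSC-2 shares, where 24.3% of the 305 bins of the genome did. In 2 bins all HSC-3 shares lay below, where 22% of all bins did. Since chromosome 5 was chosen by this contrast, nothing is read from these shares of bins. The 11 bins were those from 30 to 50 Mb, from 70 to 80 Mb and from 90 to 170 Mb. The 2 bins lower in HSC-3 ran from 20 to 30 Mb on 5p and from 50 to 60 Mb next to the centromere on 5q. Without the KOSC-2 0 Gy library replicate 1, 14 bins were higher in HSC-3, the bins from 0 to 10, 10 to 20 and 170 to 180 Mb being the additional ones. Values overlap less easily when a library is left out, and the share of all bins without this library is not given.

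The first 10 Mb of 5p had the widest difference of all bins, 0.2 percentage points. It held 0.649% and 0.429% of the peaks in the 8 Gy and 0.441% and 0.396% in the 0 Gy libraries of HSC-3, against 0.248% and 0.222% in the 8 Gy and 0.413% and 0.233% in the 0 Gy libraries of KOSC-2. The lines overlapped there through the KOSC-2 0 Gy library replicate 1 alone, whose value lay above the lowest HSC-3 value. The HSC-3 8 Gy library replicate 1, of low enrichment, raised the HSC-3 mean with its 0.649%. Whether this bin keeps the widest difference without that library is not given. The bin from 150 to 160 Mb on 5q came next, at 0.511% and 0.490% (8 Gy) and 0.513% and 0.528% (0 Gy) in HSC-3, against 0.319% and 0.283% (8 Gy) and 0.377% and 0.290% (0 Gy) in KOSC-2. All HSC-3 values lay above all KOSC-2 values, with means of 0.510% in HSC-3 and 0.317% in KOSC-2 and a difference of 0.193 percentage points. The third was the bin from 130 to 140 Mb, with 0.569% and 0.615% (8 Gy) and 0.584% and 0.639% (0 Gy) in HSC-3, against 0.422% and 0.401% (8 Gy) and 0.494% and 0.398% (0 Gy) in KOSC-2, again without overlap. As a ratio the widest gap was in the bin from 160 to 170 Mb, with means of 0.211% ± 0.0187 in HSC-3 and 0.113% ± 0.0426 in KOSC-2 (SD, n = 4 each), 1.87 times as much in HSC-3.

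The opposite sign was clearest from 50 to 60 Mb. There HSC-3 had 0.262% and 0.309% of its peaks at 8 Gy and 0.308% and 0.264% at 0 Gy, against 0.385% and 0.424% at 8 Gy and 0.335% and 0.433% at 0 Gy in KOSC-2. All HSC-3 values were lower, by 0.109 percentage points in the mean, and the KOSC-2 library nearest to them was once more the 0 Gy replicate 1. From 20 to 30 Mb, the bin with the fewest regions on 5p (96), HSC-3 had 0.0755% and 0.0464% at 8 Gy and 0.0572% and 0.0809% at 0 Gy, against 0.108% and 0.0896% at 8 Gy and 0.131% and 0.108% at 0 Gy in KOSC-2. Here too all HSC-3 values were the lower ones, although this bin lies between 2 others in which HSC-3 was higher on average.

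**Figure D2:**
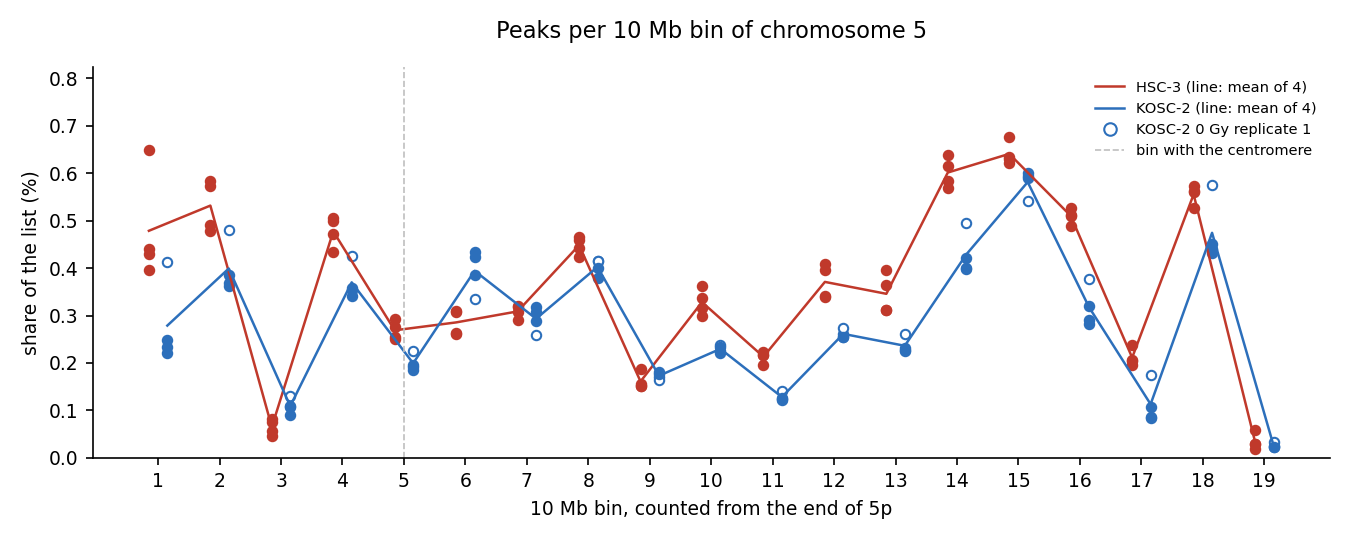
Share of each peak list (%) in the 19 bins of 10 Mb of chromosome 5, numbered from the end of 5p, for 4 HSC-3 (red) and 4 KOSC-2 (blue) libraries. Lines join the means and open circles mark the KOSC-2 0 Gy library replicate 1. HSC-3 lies above KOSC-2 in most bins of 5q from the tenth on, below it in bins 3 and 6, and the open circles are nearest to the HSC-3 mean in 16 of the 19 bins.

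Summed over longer segments, whose limits were set after the bins were seen, the first 20 Mb of 5p gave 0.333 percentage points of the difference (23.4% of it) and the rest of 5p 0.134 (9.43%). The proximal part of 5q, up to 80 Mb, gave -0.0484, with shares of 1.05% ± 0.0325 in HSC-3 and 1.10% ± 0.0717 in KOSC-2 (SD, n = 4 each) that overlapped. The part of 5q from 80 Mb on gave 1.003 percentage points (70.6%), with shares of 3.97% ± 0.195 in HSC-3 and 2.97% ± 0.209 in KOSC-2 (SD, n = 4 each) that did not. Leaving out the KOSC-2 0 Gy library replicate 1 gave 25.2%, 10.6%, -4.76% and 68.9% for the 4 segments. The segments are of unequal size and held, in the same order, 712, 604, 841 and 2635 of the 4792 regions of the chromosome.

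Of the 12827 regions called in all 8 libraries, 209 were on 5p (1.63%) and 653 on 5q (5.09%). A region of this class stands in every list, which makes its arm shares alike in both lines by construction. Peaks in these regions had 5p shares of 1.62% ± 0.0273 in HSC-3 and 1.62% ± 0.0123 in KOSC-2, and 5q shares of 5.09% ± 0.0310 in HSC-3 and 5.10% ± 0.0388 in KOSC-2 (SD, n = 4 each). Among all other peaks the 5p share was 2.05% ± 0.467 in HSC-3 and 1.24% ± 0.306 in KOSC-2, and the 5q share 5.00% ± 0.293 in HSC-3 and 3.62% ± 0.186 in KOSC-2 (SD, n = 4 each), without overlap on either arm. Peaks in the shared regions made up 44.9% ± 15.4 of the HSC-3 lists and 30.2% ± 3.85 of the KOSC-2 lists (SD, n = 4 each). The lists thus also differed in the weight of the shared regions, so this split does not show where the difference between the lines arose.

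Regions were then split by the line that called them. Of the 17730 regions with more calls in HSC-3 than in KOSC-2 libraries, 2.77% were on 5p and 5.97% on 5q. Of the 43725 with more calls in KOSC-2, 1.15% were on 5p and 3.28% on 5q. Among all 80588 regions these shares were 1.63% and 4.31%. Regions called in a single library were on 5p in 2.45% of 9941 cases if that library was of HSC-3, and in 1.44% of 15787 cases if it was of KOSC-2. They were on 5q in 5.21% and 3.48% of these cases. HSC-3-only regions, called in 4 of 4 HSC-3 and 0 of 4 KOSC-2 libraries, numbered 12 on 5p (0.912% of its regions) and 15 on 5q (0.432%), against 0.300% of all regions. KOSC-2-only regions, with the reverse pattern, numbered 21 on 5p (1.60%) and 42 on 5q (1.21%), against 2.07% of all regions. These counts moved with the libraries used: in lists of equal length, HSC-3-only regions numbered 19 on 5p (2.53%) and 40 on 5q (2.05%), against 1.19% of all regions, and KOSC-2-only regions 6 on 5p (0.798%) and 13 on 5q (0.666%), against 1.68%. Without the KOSC-2 0 Gy library replicate 1, the KOSC-2-only regions numbered 35 on 5p (2.89% of its regions) and 111 on 5q (3.31%), against 5.55% of all regions. The HSC-3-only regions then numbered 17 on 5p (1.40%) and 31 on 5q (0.925%), against 0.534% of all regions. The line contrast chose the chromosome, so nothing more is read from these shares.

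**Figure D3:**
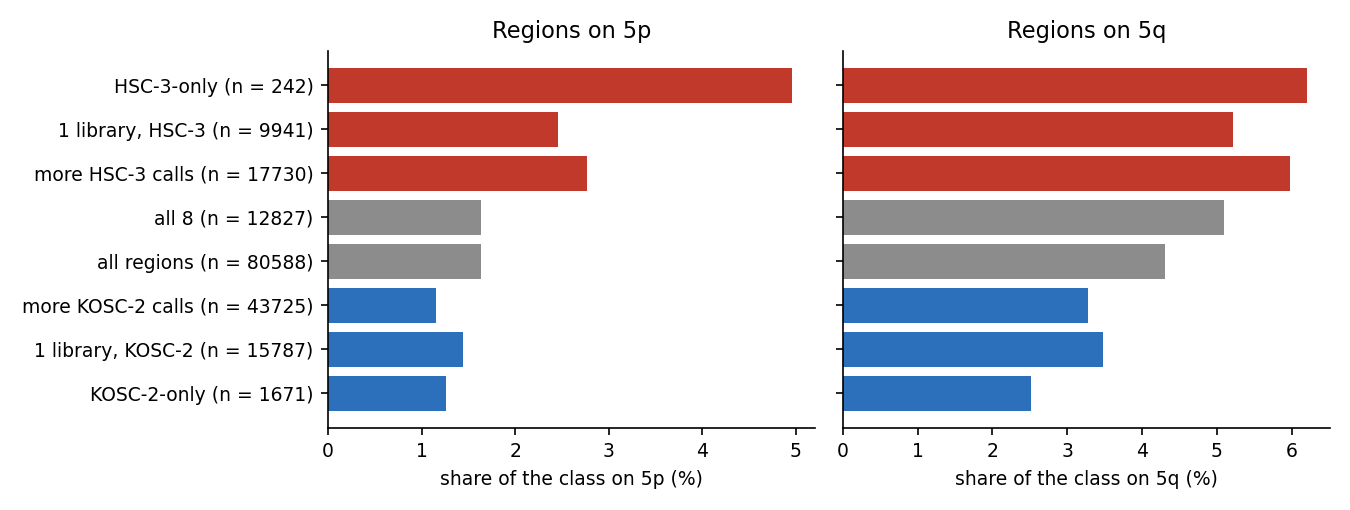
Percentage of the regions of each class that lie on 5p and on 5q, with the number of regions of the class in the genome. Red bars are classes called mostly in HSC-3, blue bars classes called mostly in KOSC-2, and grey bars all regions and those called in all 8 libraries. The red bars reach 4.96% on 5p and 6.20% on 5q, and each is longer than every blue bar on the same arm.

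The line-only regions were then counted by bin. On 5p, 8 of the 12 HSC-3-only regions lay in the first 10 Mb, and 8 of the 21 KOSC-2-only regions lay from 20 to 30 Mb, the bin in which HSC-3 had the smaller share. Of all 1316 regions of 5p, these bins held 346 and 96. On 5q, 11 of the 42 KOSC-2-only regions lay from 50 to 60 Mb and 9 from 80 to 90 Mb, and 5 of the 15 HSC-3-only regions from 150 to 160 Mb. Of all 3476 regions of 5q, these bins held 282, 151 and 326. The numbers are small, and clustering was not tested. Taken in order among the 386 regions of 5p that every library of HSC-3, of KOSC-2 or of both had called, KOSC-2-only regions followed each other without a break for at most 5, at chr5:23466360-24066368. Its 600.009 kb contained 12 regions in all, which drew 2 HSC-3 calls and 30 KOSC-2 calls. On 5q, among 1171 such regions, the longest run of KOSC-2-only regions held 4, at chr5:88080855-89392912, with 2 HSC-3 and 40 KOSC-2 calls. Runs of HSC-3-only regions held at most 2. They lay at chr5:3612611-3741990 and chr5:16187759-16412546 on 5p and at chr5:146212782-146258539 on 5q. The first of these 3 stretches had 15 HSC-3 and 0 KOSC-2 calls.

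The HSC-3-only region of highest rank on 5p was chr5:2093845-2094358, with a mean percentile of 75.5 by p-value within the HSC-3 lists. Its authors' fold enrichment over the background of the same library was 7.81 and 9.76 at 8 Gy and 11.1 and 8.06 at 0 Gy. Next were chr5:1536357-1536877 (mean percentile 74.7) and chr5:16412080-16412546 (68.7), so 2 of the 3 lay within the first 10 Mb. On 5q the leading one was chr5:118774742-118775435 (81.6), with folds of 10.03 and 14.6 at 8 Gy and 13.01 and 8.16 at 0 Gy. It was followed by chr5:110321326-110321773 (75.3) and chr5:157546873-157547284 (51.0).

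Among the KOSC-2-only regions of 5p, the region chr5:16777873-16778843 had a mean percentile of 95.5 and folds of 14.4 and 12.7 at 8 Gy and 12.1 and 13.3 at 0 Gy, with pileups of 97 and 60 reads at 8 Gy and 102 and 74 reads at 0 Gy. It lay less than 1 Mb from the HSC-3-only region at chr5:16412080-16412546. The next were chr5:23466360-23467126 (86.1) and chr5:23507241-23507858 (67.7), both in the run named above. On 5q the leading ones were chr5:83689659-83690273 (80.6), chr5:53309259-53309881 (67.1) and chr5:88880069-88880530 (64.7). The first had folds of 12.4 and 13.2 at 8 Gy and 16.2 and 13.6 at 0 Gy. The strongest regions called in every library ranked near the top of each list. They were chr5:41903872-41904786 (mean percentile 99.98) and chr5:32312289-32313570 (99.8) on 5p, and chr5:108083973-108085259 (99.8) and chr5:148205311-148206697 (99.5) on 5q.

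The regions called in all 8 libraries carried relatively more reads in HSC-3 on both arms. Fold and p-value of a peak fix the number of reads stacked at its summit (the pileup), and at the regions called in all 8 libraries this number was divided by the median of the same library over all such regions. The relative pileup on 5p was 1.36 and 1.38 in the 8 Gy and 1.40 and 1.48 in the 0 Gy libraries of HSC-3, against 0.918 and 0.857 in the 8 Gy and 1.18 and 0.846 in the 0 Gy libraries of KOSC-2. It averaged 1.41 ± 0.0509 in HSC-3 and 0.95 ± 0.156 in KOSC-2 (SD, n = 4 each), a ratio of 1.48, without overlap. On 5q it was 1.07 and 1.08 at 8 Gy and 1.05 and 1.10 at 0 Gy in HSC-3, against 0.820 and 0.776 at 8 Gy and 0.92 and 0.788 at 0 Gy in KOSC-2. The 5q ratio was 1.30, also without overlap. In HSC-3 both arms lay above the median of their library, whereas in KOSC-2 they lay below it except for 5p in the 0 Gy library replicate 1.

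Bin by bin, the relative pileup of HSC-3 lay above that of KOSC-2 without overlap in 14 of the 19 bins, below it in 1, and overlapped in 4. The share of all bins of the genome is not given for pileup, and the line contrast chose the chromosome. Nothing is therefore read from this count. The highest values were in the first 10 Mb, at 1.82 and 1.77 (8 Gy) and 1.79 and 1.98 (0 Gy) in HSC-3, against 1.01 and 0.827 (8 Gy) and 1.41 and 0.913 (0 Gy) in KOSC-2. From 50 to 60 Mb the order was turned, at 0.714 and 0.718 (8 Gy) and 0.690 and 0.714 (0 Gy) in HSC-3, against 0.967 and 1.02 (8 Gy) and 0.900 and 1.02 (0 Gy) in KOSC-2. In the bin from 20 to 30 Mb, where HSC-3 had the smaller share of peaks, its relative pileup at the 8 regions called in every library was nevertheless the higher one, 1.05 ± 0.109 in HSC-3 and 0.670 ± 0.107 in KOSC-2 (SD, n = 4 each). From 80 to 90 Mb likewise the peak shares overlapped and the pileups, 1.40 ± 0.208 in HSC-3 and 0.792 ± 0.144 in KOSC-2 (SD, n = 4 each), did not.

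**Figure D4:**
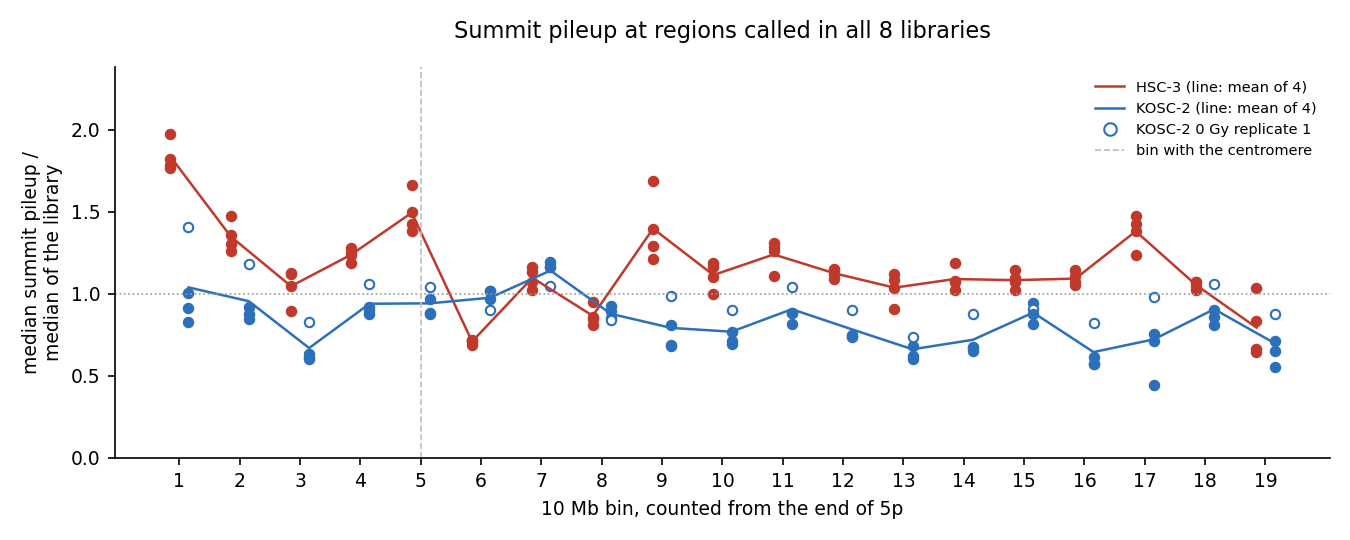
Median summit pileup of the regions called in all 8 libraries in each 10 Mb bin of chromosome 5, relative to the median of the same library over the genome (dotted line at 1), for 4 HSC-3 (red) and 4 KOSC-2 (blue) libraries. Lines join the means and open circles mark the KOSC-2 0 Gy library replicate 1. HSC-3 lies above KOSC-2 in bins 1 to 5 and 9 to 17 and below it in bin 6.

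Region by region, the log2 ratio of relative pileup, HSC-3 over KOSC-2, had a median of 0.46 on 5p (quartiles 0.20 and 0.84) and 0.39 on 5q (0.10 and 0.73), against 0.05 (-0.24 and 0.38) over all 12827 regions. Medians of the 22 other chromosomes ran from -0.28 on chromosome 16 to 0.25 on chromosome 10. All 4 HSC-3 values exceeded all 4 KOSC-2 values in 85 of 209 regions on 5p (40.7%) and 213 of 653 on 5q (32.6%), against 15.3% of all such regions. They were all lower in 0 regions of 5p and 28 of 5q (4.29%), against 11.8%. Without the KOSC-2 0 Gy library replicate 1 the higher ones numbered 124 on 5p (59.3%) and 293 on 5q (44.9%), against 21.3% of all such regions, and the lower ones 0 on 5p and 40 on 5q (6.13%), against 16.2%.

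In bins of 5 Mb with at least 10 regions the median log2 ratio was 0.26 to 0.84 all along 5p. It was -0.43, -0.56 and -0.27 in the 3 bins from 50 to 65 Mb and 0.05 to 0.14 in the 3 bins from 65 to 80 Mb. It was 0.79 in the bin from 80 to 85 Mb and stayed between 0.20 and 1.10 up to 170 Mb, with its lowest value from 140 to 145 Mb and its highest from 165 to 170 Mb. In the 2 bins from 170 to 180 Mb it was 0.18 and 0.13. The proximal part of 5q, with 139 such regions up to 80 Mb, thus had medians below or within 0.14 of 0, and all distal bins up to 170 Mb had higher ones.

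**Figure D5:**
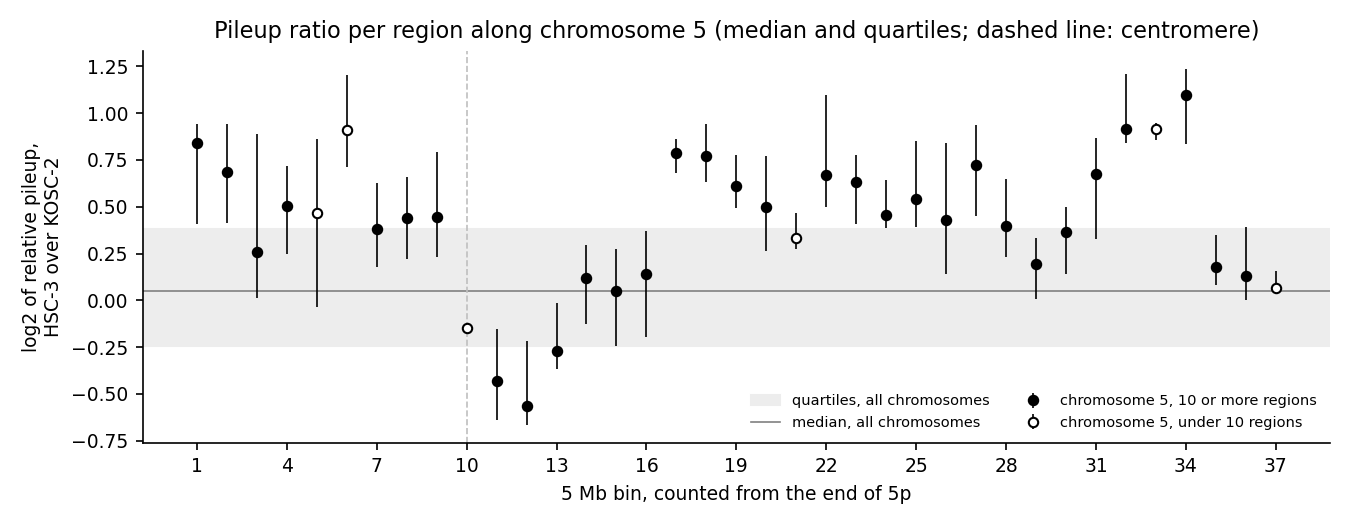
Log2 ratio of relative summit pileup, HSC-3 over KOSC-2, at the regions called in all 8 libraries, as median (point) and quartiles (bar) in 5 Mb bins numbered from the end of 5p. Open points have under 10 regions, and the grey line and band are the median and quartiles over all chromosomes. Points lie above the grey line in bins 1 to 9 (5p) and in bins 17 to 34, and below it in bins 11 to 13.

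The local background moved the same way. It is the number of reads in the 10 kb around a summit, peak included, and was taken relative to the median of the same library, over peaks where it exceeded the lowest background of the list. On 5p it was 1.18 ± 0.0557 in HSC-3 and 0.912 ± 0.0286 in KOSC-2, and on 5q 1.01 ± 0.0134 in HSC-3 and 0.889 ± 0.0192 in KOSC-2 (SD, n = 4 each), without overlap on either arm. Pileup and background both count reads, so DNA copies and openness cannot be told apart in them, and the part of either in the shares of peaks was not tested.

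The KOSC-2 0 Gy library replicate 1 lay towards HSC-3 on chromosome 5. Its share was the KOSC-2 value nearest to the HSC-3 mean in 16 of 19 bins of chromosome 5 (84.2%), and in 111 of 286 bins on the other chromosomes (38.8%). Its relative pileup lay above that of the other 3 KOSC-2 libraries by 0.306 on 5p and by 0.125 on 5q, the distance to the HSC-3 mean being 57.6% and 45.1% covered. On 13 of the 22 other chromosomes it also lay outside the range of those 3 libraries. Any library among so few is often the highest or lowest by chance alone, so nothing is read from this count. The parts covered of the distance to the HSC-3 mean were very unequal. They were 49.6%, 48.1% and 48.7% on chromosomes 2, 6 and 12, and 5.1% and 7.32% on chromosomes 7 and 16. On chromosomes 9, 13 and 22 they were 110%, 101% and 222%, but on chromosome 22 the distance was short, from 1.09 in those 3 libraries to 1.07 in HSC-3. It lay further from HSC-3 than the mean of those 3 libraries on chromosomes 3, 14, 15, 20 and X (-51.6%, -20.7%, -31.3%, -190% and -11.8%). From 50 to 60 Mb of chromosome 5, where KOSC-2 was the higher line, this library had the lowest KOSC-2 pileup. The part of its depth (64.8 reads per 10 kb, the highest) and of its enrichment (25.7) in these values was not tested.

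Irradiation was compared within each line. The 5p share averaged 1.89% ± 0.284 at 8 Gy and 1.75% ± 0.0265 at 0 Gy in HSC-3, and 1.24% ± 0.0491 at 8 Gy and 1.46% ± 0.302 at 0 Gy in KOSC-2 (SD, n = 2 each). The difference of -0.0392 percentage points over both lines was within the spread of the libraries (exact two-sided permutation test over 36 assignments, p = 0.611, smallest possible 0.0556). For 5q it was -0.125 (exact permutation p = 0.5) and for the 5p share of chromosome 5 it was -0.202 (exact permutation p = 0.778). The dose difference of HSC-3 minus that of KOSC-2 was 0.358 percentage points on 5p (exact permutation p = 0.444) and 0.0436 on 5q (exact permutation p = 0.833). After Benjamini-Hochberg adjustment over the 6 tests, which include this contrast for the balance of the arms (4.03 percentage points, exact permutation p = 0.222), each exact p was 0.833. The design cannot reach 0.05. The 5p difference turned positive when replicate 1 of KOSC-2 at 0 Gy (0.0675) or replicate 2 of HSC-3 at 8 Gy (0.0611) was left out.

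No bin of chromosome 5 was higher at 8 Gy than at 0 Gy without overlap in both lines, where 1.31% of the 305 bins of the genome were. The bin from 100 to 110 Mb was lower at 8 Gy in both lines without overlap, where 0.984% of all bins were. It held 0.196% and 0.216% at 8 Gy and 0.224% and 0.217% at 0 Gy in HSC-3, and 0.124% and 0.123% at 8 Gy and 0.141% and 0.125% at 0 Gy in KOSC-2. The closest values were 0.216% at 8 Gy and 0.217% at 0 Gy in HSC-3.

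Gained regions, present in the 8 Gy pair of a line and absent from its 0 Gy pair, numbered 11 on 5p (0.836% of its regions) and 23 on 5q (0.662%) in HSC-3, against 0.680% of all regions. In KOSC-2 they numbered 33 on 5p (2.51%) and 104 on 5q (2.99%), against 3.51% of all regions. Lost regions, with the reverse pattern, numbered 16 on 5p (1.22%) and 38 on 5q (1.09%) in HSC-3, against 0.957%, and 18 on 5p (1.37%) and 28 on 5q (0.806%) in KOSC-2, against 0.870%. By ratio, the arm furthest from the share of all regions was 5p for the 18 regions lost in KOSC-2. These shares were not tested.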

How the data were processed

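ATAC-seq peaks of 8 libraries were analysed, 2 for each line and dose, grouped by their labels. Per the submitters' processing notes the tools were FastQC 0.11.7, Bowtie2 2.3.4.2, SAMtools 1.9, deepTools and MACS2 2.2.6 with build hg19. Parameters, duplicate handling and the Tn5 shift: not given in the sources used here. There is 1 list per library. The deposited columns are a score (whole part of 10 times the −log10 q-value), the fold (ratio to background within the library), −log10 of p and of q, and the summit offset.

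The members, lists, arm limits and alternatives were chosen with earlier results of these data known. Only chromosomes 1 to 22 and X entered. Arms and bins go by peak start. Pileup and background were recovered from fold and p by a search over pileups of 2 to 400 (100% of peaks within 0.0001 of the deposited −log10 p), with 300 bp fragments. Backgrounds above the lowest of the list gave whole reads per 10 kb in 100% of cases (tolerance 0.1). Depth set the weakest detectable peak, at 5 to 9 reads by library. Regions named were, on each arm, the 3 HSC-3-only, 3 KOSC-2-only and 2 shared regions of highest mean percentile. Bins given by library were the 3 with the largest and the 2 with the smallest difference, and in addition the bin from 100 to 110 Mb, and for means the bins from 160 to 170 and 80 to 90 Mb, which were chosen after their values were seen, as were the per-region ratios and the segments. Functions were tested on simulated lists. No genome of hg19 was used, so no sequence is shown. Tools were scipy 1.17.1, pandas 2.3.3, numpy 2.4.6 and matplotlib 3.10.9 under Python 3.11.15. Alternatives tried were lists of equal length, bases covered, other bins, a stricter q-value, other overlap and call rules, ranks, a replicate block, and leaving out libraries.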

Additional observations from a re-analysis of the deposited data

Results flagged for a closer look

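Of 52 sets of 4 library values of a line on chromosome 5, 7 had a value far from the other 3, where chance gives about 1 in 20. The KOSC-2 0 Gy library replicate 1 held 6 of them. Its share of peaks was 1.67% on 5p, with 1.21 to 1.28% for the rest of KOSC-2, and 4.29% on 5q, with 3.99% in each of these. By bin its share was 0.413% from 0 to 10 Mb (others 0.222 to 0.248%), 0.141% from 100 to 110 Mb (0.123 to 0.125%), 0.262% from 120 to 130 Mb (0.226 to 0.231%) and 0.575% from 170 to 180 Mb (0.431 to 0.451%). The remaining one was the HSC-3 0 Gy library replicate 2, with 0.187% from 80 to 90 Mb against 0.151 to 0.155% in the other HSC-3 libraries.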

How the results depend on the processing

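Of 239 recomputed values, 199 counted as the same, 28 moved in size or scale and 12 reversed in direction. To count as the same, values had to keep their direction. Dose tests also had to keep their side of the threshold, but the design could not pass it, so this part was fixed in advance. Under a replicate block or crossed numbers the dose differences could not change either, and these values count among the 199. Among the 199, differences between lines moved by less than 1 SD between libraries and counts by at most 1.5 times. Dose differences could change severalfold in size, as the ranges below show. With lists of equal length the 5q difference was 1.2 percentage points, 1 bin was lower in HSC-3, the dose differences turned to 0.0300 (5p) and 1.25 (5p share of chromosome 5), and HSC-3-only regions numbered 19 (5p) and 40 (5q) against 6 and 13 KOSC-2-only regions. By bases covered 1 bin was lower and the dose difference of the 5p share of chromosome 5 was 0.153, with bins shifted by 5 Mb 1 bin was lower, and with bins of 5 Mb 17 were higher. As ranks, pileups differed by 18.6 (5p) and 12.6 (5q) percentile points, and background at shared regions had ratios of 1.48 and 1.29. With calls in at least 3 of 4 libraries HSC-3-only regions numbered 28 and 54 and KOSC-2-only regions 46 and 136, and without the 3 libraries of lowest enrichment 105, 212, 37 and 117. Asking for fewer calls or leaving out libraries loosens the rule for such regions. The shares of all regions under these 2 rules, and of all bins under other bins, are not given, so nothing is read from these counts.

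Leaving out each library gave differences between lines of 0.376 to 0.574 (5p), 0.874 to 1.03 (5q) and 0.803 to 2.80 (5p share of chromosome 5), 11 to 14 higher and 2 to 3 lower bins, pileup ratios of 1.42 to 1.57 and 1.27 to 1.33, and background ratios of 1.27 to 1.32 and 1.12 to 1.14. HSC-3-only regions numbered 12 to 22 on 5p (22 without HSC-3 0 Gy replicate 2) and 16 to 38 on 5q (38, 26 and 31 without the HSC-3 8 Gy replicate 1, the HSC-3 0 Gy replicate 2 and the KOSC-2 0 Gy replicate 1). KOSC-2-only regions numbered 21 to 35 on 5p and 42 to 111 on 5q, both highest without the KOSC-2 0 Gy replicate 1 (and 68 on 5q without the HSC-3 0 Gy replicate 1). The matching shares of all bins are not given, nor those of all regions except without the KOSC-2 0 Gy replicate 1. Nothing is therefore read from the counts of bins and regions. Dose differences were -0.146 to 0.0675 (5p), -0.220 to -0.0299 (5q) and -1.27 to 0.862 (5p share of chromosome 5), and those of HSC-3 minus KOSC-2 0.145 to 0.572 (5p) and -0.146 to 0.233 (5q), the last negative without the HSC-3 8 Gy replicate 1 (-0.0263), the HSC-3 0 Gy replicate 1 (-0.146) or the KOSC-2 0 Gy replicate 1 (-0.106). For the 5p share of chromosome 5 the sign turned without the HSC-3 8 Gy replicate 2 (0.719), the HSC-3 0 Gy replicate 1 (0.0524), the KOSC-2 8 Gy replicate 2 (0.0550) or the KOSC-2 0 Gy replicate 1 (0.862). The causes were not tested.

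Same-numbered libraries deviated together in KOSC-2 (r = 0.160 over 305 bins) but not in HSC-3 (-0.300), and no label pairs them. A replicate block cannot change the differences, which stayed at -0.0392, -0.125 and -0.202 (exact permutation p = 0.625, 0.5 and 0.75, smallest possible 0.125). With that smallest p no call was possible. The same holds for crossed numbers in HSC-3, an alternative chosen after seeing the data.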

Other observations

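The relative summit pileup of the KOSC-2 0 Gy library replicate 1 lay outside the range of the other 3 KOSC-2 libraries on 13 of the 22 chromosomes other than 5, above it on 5 and below it on 8. Any library among so few is often the highest or lowest by chance alone, so nothing is read from this count. Some margins were narrow, such as 1.08 against 1.082 to 1.096 on chromosome 7. Its value was lower by the widest margin on chromosome 9, at 1.02, where HSC-3 averaged 1.03 and the other KOSC-2 libraries had 1.13 to 1.19. On chromosome 2 it had 0.96 (HSC-3 0.906, others 1.0 to 1.02), on chromosome 12 it had 1.06 (HSC-3 0.994, others 1.12 to 1.13) and on chromosome 6 it had 0.9 (HSC-3 0.939, others 0.857 to 0.869), each nearer to the HSC-3 mean. It was higher by the widest margin on chromosome 20, at 1.22, where HSC-3 averaged 1.04 and the others had 1.07 to 1.12, so that it lay further from HSC-3. On chromosomes 3, 14, 15 and X it also lay further from HSC-3 than the mean of the others. On chromosomes 16 and 10, where the ratio per region of HSC-3 over KOSC-2 had its lowest and highest median outside chromosome 5, it had 1.12 (HSC-3 0.915, others 1.13 to 1.14) and 0.96 (HSC-3 1.12, others 0.939 to 0.967).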
